A study of Mus musculus with 6 samples.

Results

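The epithelial junction and keratin genes are 10 genes chosen by name: the E-cadherin gene *Cdh1*, the adhesion molecule gene *Epcam*, the claudin genes *Cldn4*, *Cldn6* and *Cldn7*, the simple keratin genes *Krt8* and *Krt18*, the epithelial regulators *Esrp1* and *Grhl2*, and the protease inhibitor gene *Spint2*. All 10 were found among the 35565 genes of the count table, and all 10 passed the filter on low counts that 15110 genes passed. They were measured by bulk RNA sequencing of gastruloids, aggregates of mouse embryonic stem cells (ESCs) that differentiate and elongate along an anteroposterior axis, collected at day 5. There were 3 libraries of Control (NT) gastruloids, from non-targeting ESCs that the sample labels give as wild type, and 3 libraries of gastruloids from KD-1, a clone in which the ultraconserved lncRNA *T-UCstem1* was knocked down. Both cell lines derive from the line TBV2 129/SvP, and both kinds of aggregate received a pulse of CHIR99021, a GSK3 inhibitor that activates WNT signalling. KD-1 is 1 clone, so that a property of the clone and an effect of the silencing cannot be told apart. The second knockdown clone of the study and the level of *T-UCstem1* itself were not analysed here. The submitters call the libraries of a group biological replicates and do not say what was separate between them, so that p-values measure the spread between these libraries.

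Epithelial cells hold together by adherens junctions, in which E-cadherin binds its like on the neighbouring cell and catenins link it to actin, and by tight junctions, whose strands are built of claudins. Keratins 8 and 18 pair to form the filaments of simple epithelia. Pluripotent cells are epithelial in this sense too, and during gastrulation cells that form mesoderm give up E-cadherin for N-cadherin under transcription factors of the SNAI, ZEB and TWIST families, a change called the epithelial-mesenchymal transition (EMT). GRHL2 and ESRP1 are known to maintain the epithelial state, the former by activating junction genes and the latter by directing epithelial splicing. In a bulk sample, fewer cells of a type and less RNA per cell cannot be told apart.

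The library totals lay between 20982249 and 85561026 counts, and a count of 0 allows up to 0.143 CPM in the shallowest library and 0.0351 CPM in the deepest, taking 3 counts as the limit and for counting error only. The libraries of each group are told apart here by their depth (lowest, middle, highest). None was a copy of another, since counts of paired libraries in a group deviated with a chi-square per degree of freedom between 4.67 and 34.3. Control (NT) of middle depth stood apart, with values of 34.0 and 34.3 against the other two, which had 14.4 against each other. It held the highest Control (NT) level of 7 of the 10 epithelial genes, and of 40.0% of all genes tested. The log2 fold changes of *Epcam*, *Krt8*, *Krt18*, *Cldn4*, *Cldn7* and *Spint2* are given with and without it. Calls required a fold change over 1.5 in either direction and, from edgeR's quasi-likelihood test with Benjamini-Hochberg adjustment over all genes tested, an adjusted p under 0.05. By this rule 5709 genes, 37.8% of those tested, were called, 19.7% as higher and 18.1% as lower in KD-1. Levels are CPM, counts per 1000000 of the TMM-normalized library size.

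The promoters are shown because SNAI, ZEB and TWIST proteins are known to bind E-boxes there. The 250 bases before the annotated start were taken from RefSeq (GRCm38.p6), where 7 of the 10 genes had an entry (all but *Cdh1*, *Esrp1* and *Grhl2*). The letters CACCTG, an E-box known to be bound by SNAI and ZEB proteins, were searched on both strands, so that CAGGTG counts as well. They were found in all 7 genes and in 7 of their 8 windows, against 17.2% of the 32851 promoter windows of the same length. *Spint2* held 3 E-boxes, *Epcam* 2, and *Cldn4*, *Cldn6*, *Krt8* and *Krt18* 1 each. *Cldn7* has 2 annotated starts, and the window at 1 of them held 2 E-boxes. This motif was singled out after all 9 motifs named here had been searched. Shown 5′ to 3′, with the E-boxes in capitals, are the windows of *Epcam*, which rose, of both keratin genes, which fell, and of *Cldn4*, which was not called.
*Epcam* (chr17:87635729-87635978, plus strand): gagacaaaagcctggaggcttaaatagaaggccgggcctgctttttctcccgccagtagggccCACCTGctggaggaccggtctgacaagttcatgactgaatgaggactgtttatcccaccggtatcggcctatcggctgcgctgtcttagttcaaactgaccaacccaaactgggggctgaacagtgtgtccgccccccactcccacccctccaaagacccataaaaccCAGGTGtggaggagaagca
*Krt8* (chr15:102004343-102004592, minus strand): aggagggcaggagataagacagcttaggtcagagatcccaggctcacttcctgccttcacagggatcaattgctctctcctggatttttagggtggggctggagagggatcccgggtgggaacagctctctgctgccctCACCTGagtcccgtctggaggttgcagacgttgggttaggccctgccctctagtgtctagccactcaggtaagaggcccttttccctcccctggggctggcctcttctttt
*Krt18* (chr15:102027966-102028215, plus strand): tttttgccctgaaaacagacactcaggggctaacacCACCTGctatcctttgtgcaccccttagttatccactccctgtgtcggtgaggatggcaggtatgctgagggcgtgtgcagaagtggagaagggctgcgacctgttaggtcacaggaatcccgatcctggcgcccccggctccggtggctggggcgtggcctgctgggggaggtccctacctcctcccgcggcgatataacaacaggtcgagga
*Cldn4* (chr5:134946935-134947184, minus strand): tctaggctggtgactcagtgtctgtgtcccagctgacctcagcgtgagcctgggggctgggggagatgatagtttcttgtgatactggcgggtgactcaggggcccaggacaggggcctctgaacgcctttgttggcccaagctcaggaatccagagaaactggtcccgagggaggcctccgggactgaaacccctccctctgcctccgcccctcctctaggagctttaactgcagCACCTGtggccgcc
The E-boxes begin 187 and 19 bases before the annotated start in *Epcam*, 111 bases before it in *Krt8*, 214 in *Krt18* and 14 in *Cldn4*. *Cdh1*, *Esrp1* and *Grhl2*, the other genes called higher, had no window to compare. Among the 7 genes with a window, *Epcam*, called higher, and *Krt8* and *Krt18*, called lower, carried the same letters. Whether the E-boxes bear on the direction of a difference was not tested. The other motifs were rarer in the 7 genes. The GC box CCCGCCC was found in 2 of the 7 genes (23.4% of all windows), the E-box variant CAGCTG in 1 (13% of all windows) and the AP-1 motif TGACTCA in 1 (4.46% of all windows). No match was found for the TATA box TATAAA (12.4% of all windows), for CCAAT (33.8% of all windows), for the KLF motif CCACACCC (3.2% of all windows), or for the Grainyhead motif AACCGGTT (0.116% of all windows) and its variant AACAGGTT (0.837% of all windows). Each motif was looked for on both strands and on its own, so that matches of different motifs may overlap. A match describes the sequence and does not show a bound site.

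The 10 genes did not move as a group. *Cdh1*, *Epcam*, *Esrp1* and *Grhl2* were higher in KD-1, *Krt8* and *Krt18* were lower, and *Cldn4*, *Cldn6*, *Cldn7* and *Spint2* were not called. Thus 4 of 10 were called higher, where 19.7% of all genes tested were, and 2 of 10 lower, where 18.1% were. With no fold change threshold the same 6 genes had an adjusted p under 0.05 (edgeR's quasi-likelihood test), and so did 63.5% of all genes tested. The libraries of the groups did not overlap for the 6 called genes and overlapped for the other 4, against 70.6% of all genes tested whose groups did not overlap. Over the 10 genes the log2 fold change had a median of 0.77, against -0.01 over all genes tested. None of the 10 lies on chromosome 1, where the genes tested had a median log2 fold change of 0.49. On their own chromosomes (4, 5, 7, 8, 11, 15 and 17) that median lay between -0.17 and -0.01.

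**Figure D1:**
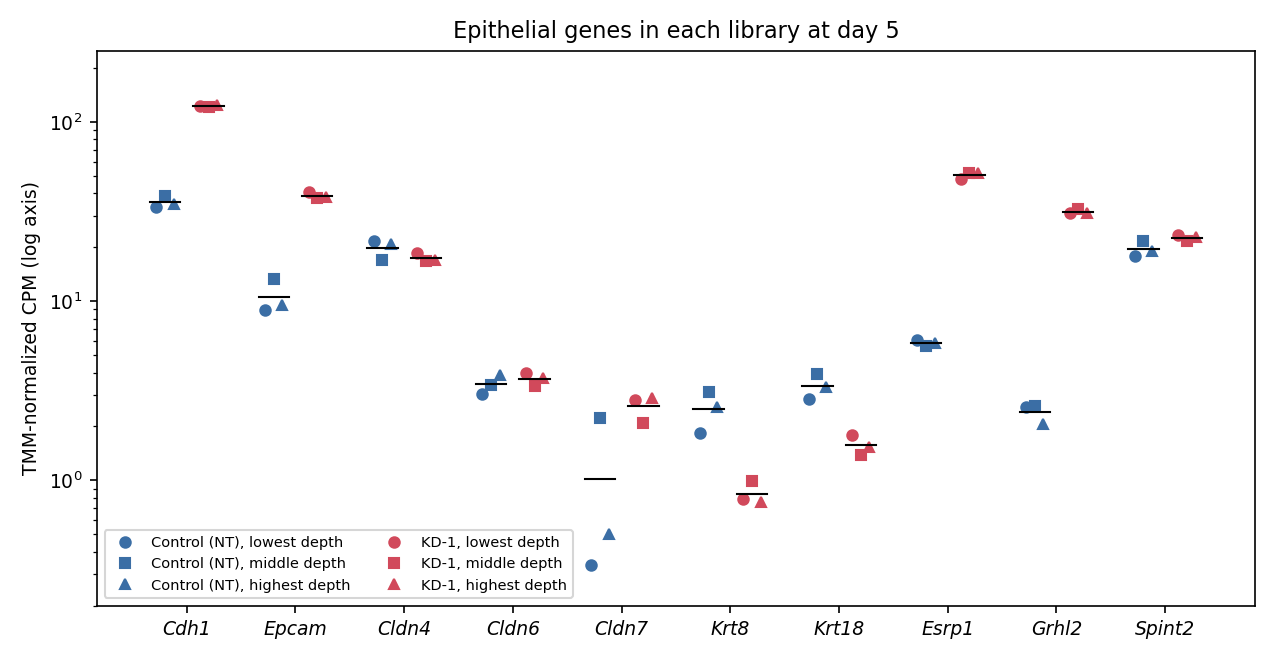
TMM-normalized CPM (log axis) of the 10 epithelial genes in each library, with Control (NT) in blue, KD-1 in red, the marker shape giving the depth of the library and the black line the mean of 3 libraries. *Cdh1*, *Epcam*, *Esrp1* and *Grhl2* sit higher in all KD-1 libraries, *Krt8* and *Krt18* sit lower, and the Control (NT) library of middle depth stands out for *Cldn7* at 2.22 CPM.

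*Cdh1* encodes E-cadherin, the adhesion receptor of adherens junctions (ENSMUSG00000000303, GRCm39 chromosome 8, from 107329941 to 107396880, plus strand). Its level in the Control (NT) libraries of lowest, middle and highest depth was 33.5, 38.7 and 34.7 TMM-normalized CPM. In the KD-1 libraries, in the same order, it was 123, 121 and 125 CPM. The lowest KD-1 library thus held over 3 times the highest Control (NT) library, and the spread within either group was small beside this gap. From a mean of 35.6 ± 2.71 to 123 ± 2.20 CPM (SD, n = 3 each), the log2 fold change was 1.79 (SE 0.07, edgeR quasi-likelihood adjusted p = 1.6e-07), a 3.45-fold rise.

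*Epcam* encodes a homophilic adhesion glycoprotein of epithelia and of pluripotent cells (ENSMUSG00000045394, GRCm39 chromosome 17, from 87943407 to 87958557, plus strand). The Control (NT) libraries had 8.97, 13.3 and 9.48 CPM and the KD-1 libraries 40.5, 37.6 and 38.2 CPM. The groups lay far apart, and within Control (NT) the library of middle depth was the highest. The log2 fold change was 1.87 (SE 0.14, edgeR quasi-likelihood adjusted p = 6.9e-06), and 2.06 without that library. The fold changes of *Cdh1* and *Epcam* were close to each other. Their ratio within a library was between 2.90 and 3.73 in Control (NT) and between 3.03 and 3.27 in KD-1, and the difference of the log2 ratio, -0.10, was not resolved (exact two-sided permutation test, p = 0.4). It was -0.22 without Control (NT) of middle depth and -0.04 without that of lowest depth.

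The regulators changed most of the 10. *Grhl2*, which encodes a Grainyhead-like transcription factor (ENSMUSG00000022286, GRCm39 chromosome 15, from 37233280 to 37363813, plus strand), had 2.56, 2.61 and 2.06 CPM in Control (NT) and 31.2, 32.6 and 30.9 CPM in KD-1. Levels were thus low in every Control (NT) library and over 10 times as high in every KD-1 library. The log2 fold change was 3.74 (SE 0.11, edgeR quasi-likelihood adjusted p = 4.6e-08), and 1.52% of all genes tested had a larger one. Its 3′ end overlaps that of *Ncald* on the opposite strand, which had 1.89 ± 0.469 CPM in Control (NT) and 5.20 ± 0.245 CPM in KD-1 (SD, n = 3 each), and whether strand was used in the counting is not given in the sources used here.

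*Esrp1* encodes an RNA-binding protein that directs epithelial splicing (ENSMUSG00000040728, GRCm39 chromosome 4, from 11331933 to 11386875, minus strand). It had 6.08, 5.59 and 5.81 CPM in the Control (NT) libraries and 48.2, 51.7 and 51.7 CPM in the KD-1 libraries. The 3 libraries of each group were close to each other. The log2 fold change was 3.12 (SE 0.08, edgeR quasi-likelihood adjusted p = 2.2e-08), an 8.70-fold rise. The fold change was larger for *Grhl2* than for *Esrp1*. The *Esrp1* to *Grhl2* ratio was between 2.15 and 2.82 in Control (NT) and between 1.54 and 1.67 in KD-1, with no overlap (difference of the log2 ratio -0.61, exact two-sided permutation test, p = 0.1, the smallest that 3 against 3 libraries allow).

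The simple keratin genes went the other way. *Krt8* (ENSMUSG00000049382, GRCm39 chromosome 15, from 101905133 to 101912917, minus strand) had 1.83, 3.11 and 2.58 CPM in Control (NT) and 0.787, 0.988 and 0.760 CPM in KD-1, which is between 33 and 143 counts in a library. Its partner *Krt18*, a near neighbour on the same chromosome (from 101936615 to 101940462, plus strand, ENSMUSG00000023043), had 2.85, 3.94 and 3.30 CPM in Control (NT) and 1.79, 1.38 and 1.54 CPM in KD-1. All KD-1 libraries lay below all Control (NT) libraries for both genes, at levels that were low throughout. The processed copy *Krt8-ps* was listed with 0 counts in every library. *Krt8* fell by 1.59 on the log2 scale (SE 0.26, edgeR quasi-likelihood adjusted p = 0.00071), a 3.01-fold decrease. *Krt18* fell by 1.11 (SE 0.19, edgeR quasi-likelihood adjusted p = 0.0011). Without Control (NT) of middle depth, which held the highest level of both, the log2 fold change was -1.44 for *Krt8* and -0.99 for *Krt18*. The *Krt8* to *Krt18* ratio was 0.644, 0.789 and 0.781 in Control (NT) against 0.440, 0.717 and 0.493 in KD-1, and the groups overlapped (difference of the log2 ratio -0.45, exact two-sided permutation test, p = 0.2).

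The claudin genes of the group were not called. *Cldn4*, a claudin of simple epithelia (ENSMUSG00000047501, GRCm39 chromosome 5, from 134973973 to 134975788, minus strand), had 21.8, 16.9 and 20.8 CPM in Control (NT) and 18.6, 16.8 and 16.9 CPM in KD-1. Its log2 fold change was -0.18, with a 95% interval from -0.42 to 0.05 (edgeR quasi-likelihood adjusted p = 0.15). Leaving out Control (NT) of middle depth, which held its lowest Control (NT) level, gave -0.29 (edgeR adjusted p = 0.0052), still under 1.5-fold. *Cldn6*, a claudin of embryonic epithelia and pluripotent cells (ENSMUSG00000023906, GRCm39 chromosome 17, from 23898223 to 23901420, plus strand), had 3.04, 3.40 and 3.90 CPM in Control (NT) and 3.98, 3.36 and 3.74 CPM in KD-1. The groups overlapped, and the log2 fold change of 0.09 had a 95% interval from -0.27 to 0.44 (edgeR quasi-likelihood adjusted p = 0.65). For both genes the interval lies within a 1.5-fold change in either direction.

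*Cldn7*, which encodes a claudin found with EPCAM on the sides of epithelial cells (ENSMUSG00000018569, GRCm39 chromosome 11, from 69852648 to 69858711, plus strand), depended on 1 library. It had 0.338, 2.22 and 0.505 CPM in Control (NT), which is 7, 75 and 28 counts, and 2.81, 2.09 and 2.89 CPM in KD-1. The Control (NT) library of middle depth thus lay among the KD-1 libraries, and the other two lay well below them. The log2 fold change was 1.33, with a 95% interval from 0.08 to 2.58 (edgeR quasi-likelihood adjusted p = 0.061). Without the library of middle depth it was 2.52 (edgeR adjusted p = 4.2e-06), and it was also called with DESeq2 and with limma-voom. *Elp5*, which overlaps it on the opposite strand, had 73.4 ± 2.66 CPM in Control (NT), with 75.2 CPM in the library of middle depth, and 56.5 ± 0.710 CPM in KD-1 (SD, n = 3 each). Its part in the counts of *Cldn7* was not tested.

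*Spint2*, which encodes a Kunitz-type inhibitor of membrane serine proteases (ENSMUSG00000074227, GRCm39 chromosome 7, from 28955747 to 28981493, minus strand), had 17.8, 21.7 and 19.1 CPM in Control (NT) and 23.4, 21.6 and 22.9 CPM in KD-1. The groups overlapped by a narrow margin. The log2 fold change was 0.21, with a 95% interval from 0.01 to 0.41 that lies within a 1.5-fold change (edgeR quasi-likelihood adjusted p = 0.064). With Control (NT) of middle depth left out, the adjusted p was 0.0047 (edgeR) at a log2 fold change of 0.29, still under 1.5-fold. *Spint1*, its paralog, had 5.18 ± 1.35 CPM in Control (NT) and 6.97 ± 1.03 CPM in KD-1 (SD, n = 3 each) and was not called either (edgeR quasi-likelihood adjusted p = 0.10). Among the proteases of this pathway, *St14*, which encodes matriptase, rose from 7.79 ± 1.78 to 12.8 ± 0.0276 CPM (SD, n = 3 each; log2 fold change 0.72, edgeR adjusted p = 0.0028).

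**Figure D2:**
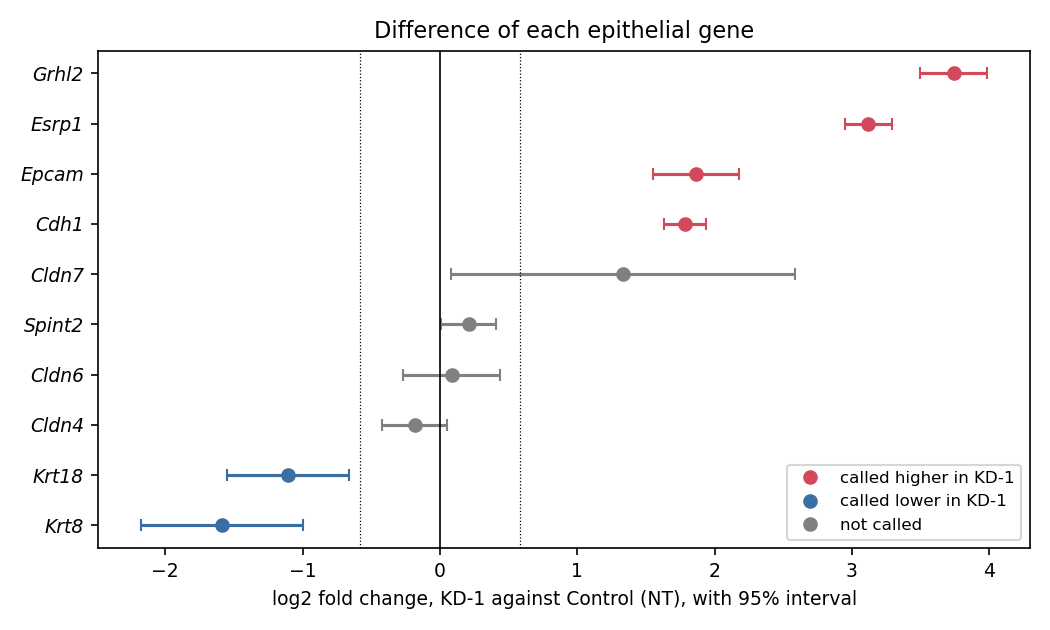
Log2 fold change of each epithelial gene, KD-1 against Control (NT), with its 95% interval, and dotted lines at a fold change of 1.5 in either direction. *Grhl2* (3.74) and *Esrp1* (3.12) lie farthest to the right, *Krt8* (-1.59) farthest to the left, and the widest interval is that of *Cldn7*, from 0.08 to 2.58.

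The order of the genes by level differed between the groups. Levels of different genes were compared per kilobase of the longest annotated transcript. In Control (NT), *Cldn4* led with 10.9 ± 1.40 CPM per kb (SD, n = 3), followed by *Cdh1* with 7.96 ± 0.607 and *Spint2* with 6.01 ± 0.606. *Epcam* (5.13 ± 1.15 CPM per kb) overlapped *Spint2*, *Krt18* overlapped *Cldn6*, and from *Esrp1* through *Krt8* and *Cldn7* to *Grhl2*, the lowest with 0.486 ± 0.0612 CPM per kb, each gene overlapped the next. In KD-1, *Cdh1* led with 27.5 ± 0.493 CPM per kb, followed by *Epcam* with 18.8 ± 0.734 and *Esrp1* with 12.8 ± 0.515, and *Krt8* was the lowest with 0.432 ± 0.0637. There the libraries of neighbouring genes in this order overlapped only for *Cldn6* and *Cldn7*. *Grhl2* moved from the tenth place to the sixth (6.39 ± 0.186 CPM per kb), and *Cldn4* from the first to the fourth (9.59 ± 0.544 CPM per kb).

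Within the claudin family, *Cldn4* made up a smaller part in KD-1 although its own level was not called. Of the summed CPM per kb of 23 claudin genes, *Cldn4* held 56.0%, 46.8% and 52.6% in the Control (NT) libraries of lowest, middle and highest depth and 38.5%, 37.8% and 34.8% in the KD-1 libraries. *Cldn5*, a claudin best known from endothelium, rose from 0.341 ± 0.262 to 3.93 ± 0.714 CPM (SD, n = 3 each; log2 fold change 3.43, edgeR quasi-likelihood adjusted p = 0.00023), and its share went from 1.12% to 10.7% on average. *Cldn12*, a widely expressed claudin, held 24.8% and 29.9%. The level of *Cldn12* averaged 43.7 CPM (Control (NT)) and 64.7 CPM (KD-1), a 1.48-fold difference just under the threshold. *Cldn1* was the other claudin called higher, and none was called lower. Of the 23 claudins, 9 were tested and 14 did not pass the filter on low counts, among them *Cldn3*.

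The keratins were low in both groups. Their summed level per length was 7.69 CPM per kb in Control (NT) and 4.05 in KD-1 on average over 16 keratin genes. Of these, 6 were tested, 4 of them were called lower (*Krt8*, *Krt10*, *Krt15* and *Krt18*) and 1 higher. These are 66.7% and 16.7%, against 18.1% and 19.7% of all genes tested. Without *Krt8* and *Krt18*, which belong to the 10 genes, 4 keratins were tested, 2 of them called lower and 1 higher. The keratin called higher was *Krt23*, a type I keratin, which rose from 0.272 ± 0.134 to 2.44 ± 0.0440 CPM (SD, n = 3 each; log2 fold change 3.13, edgeR quasi-likelihood adjusted p = 7.1e-05). *Krt10*, a keratin of differentiated epidermis, fell from 6.88 ± 2.44 to 3.29 ± 0.234 CPM (SD, n = 3 each; log2 fold change -1.08, edgeR adjusted p = 0.0034). Of the keratin sum, *Krt8* went from 16.7% ± 1.23 to 10.7% ± 1.57 and *Krt23* from 1.13% ± 0.689 to 17.2% ± 0.488 (SD, n = 3 each). The groups overlapped for the shares of *Krt18* (30.9% ± 2.81 and 27.0% ± 3.06) and of *Krt10*, the largest (41.8% ± 3.92 and 38.6% ± 2.52). *Krt5* and *Krt14*, keratins of stratified epithelia, did not pass the filter, and *Krt14* had 0 counts in every library.

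**Figure D3:**
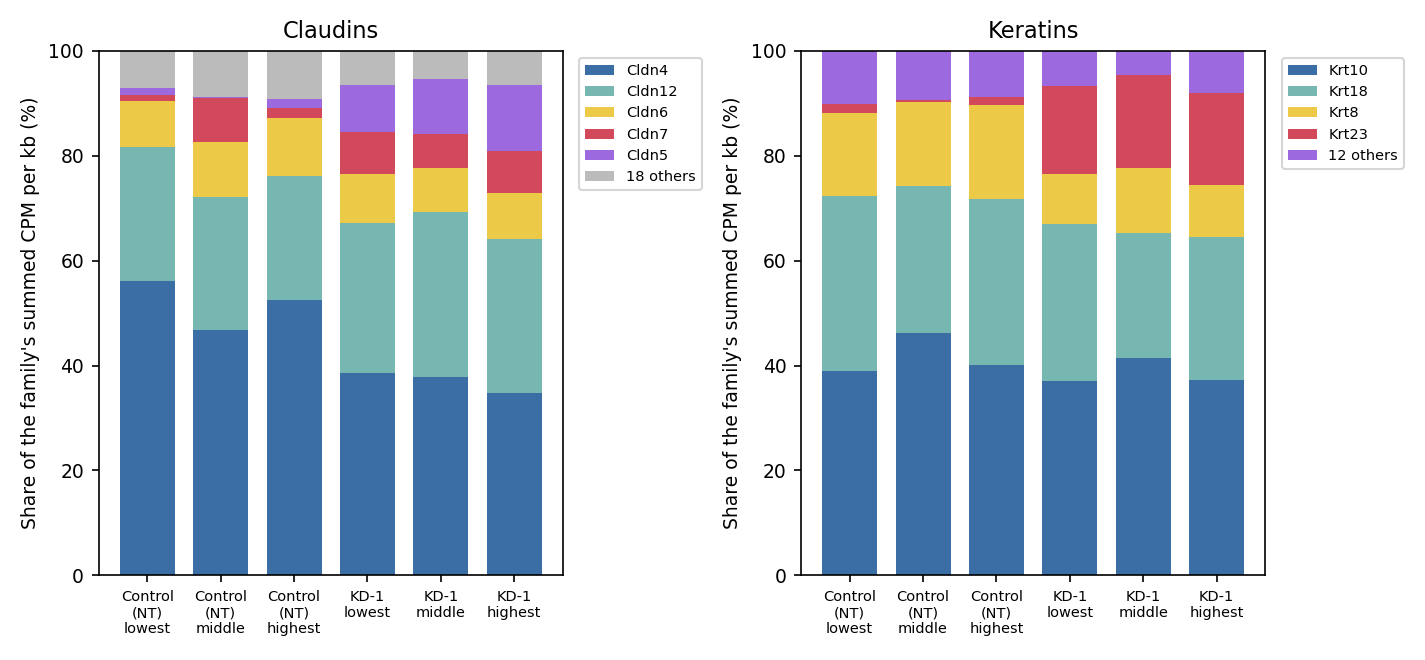
Share of each gene in the summed CPM per kb of 23 claudin genes (left) and 16 keratin genes (right), in percent, for each library. The bars show *Cldn4* at 46.8% or more in Control (NT) and at 38.5% or less in KD-1, and *Cldn5* and *Krt23* as the shares that are wide in KD-1 alone.

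The other genes of junctions and of the epithelial programme were counted from lists. Of 106 such genes beside the 10, 73 were tested, 26 of them being higher and 7 lower by the same rule (35.6% and 9.59%, where all genes had 19.7% and 18.1%), with a median log2 fold change of 0.39 against -0.01 over all genes. Of the 11 regulators tested besides *Esrp1* and *Grhl2*, 8 were called higher and none lower. *Rbm47*, which encodes an epithelial RNA-binding protein, rose from 3.40 ± 0.421 to 20.6 ± 0.652 CPM (SD, n = 3 each; log2 fold change 2.61, edgeR quasi-likelihood adjusted p = 3.1e-07). *Grhl1* had a log2 fold change of 2.06 and *Esrp2* 1.72. *Grhl3*, the third gene of its family, had 9.90 ± 2.23 CPM in Control (NT) and 12.2 ± 0.659 CPM in KD-1 and was not called. The fold change was larger for *Esrp1* than for its paralog. The *Esrp1* to *Esrp2* ratio was between 3.15 and 4.34 in Control (NT) and between 8.31 and 12.1 in KD-1 (exact two-sided permutation test, p = 0.1, the smallest possible).

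Of the catenins, the partners of E-cadherin in the adherens junction, none was called. *Ctnnb1*, which encodes β-catenin, had 958 ± 40.4 CPM in Control (NT) and 753 ± 14.5 CPM in KD-1 (SD, n = 3 each). Its log2 fold change of -0.35 is under the fold change threshold (edgeR quasi-likelihood adjusted p = 0.00066). *Ctnna1* (α-catenin) had -0.22 and *Ctnnd1* (p120-catenin) -0.18, and neither was called. *Jup*, which encodes plakoglobin (γ-catenin), lay on the other side, with 15.1 ± 1.04 CPM in Control (NT) and 21.3 ± 1.48 CPM in KD-1 (SD, n = 3 each). Its fold change stayed under the threshold (log2 fold change 0.48, edgeR quasi-likelihood adjusted p = 0.0013). Of the 12 adherens junction genes, all tested, 2 were called higher and 1 lower (16.7% and 8.33%, against 19.7% and 18.1% of all genes). *Cdh3*, which encodes P-cadherin and lies beside *Cdh1* on chromosome 8, rose from 3.10 ± 0.0884 to 14.7 ± 0.800 CPM (SD, n = 3 each; log2 fold change 2.24, edgeR adjusted p = 4.8e-07), and *Lima1*, which encodes an actin-binding protein, had a log2 fold change of 2.14. *Nectin1*, an adhesion molecule of the immunoglobulin family, fell from 41.2 ± 3.49 to 7.31 ± 0.555 CPM (SD, n = 3 each; log2 fold change -2.49, edgeR quasi-likelihood adjusted p = 1.6e-07).

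Of 15 tight junction genes tested, claudins aside, 5 were called higher and 1 lower (33.3% and 6.67%, against 19.7% and 18.1% of all genes), 12 had a log2 fold change above 0, and the median was 0.31. *Marveld2*, which encodes tricellulin, rose from 0.645 ± 0.193 to 2.38 ± 0.0703 CPM (SD, n = 3 each; log2 fold change 1.86, edgeR quasi-likelihood adjusted p = 0.00023), while the rises of the polarity gene *Crb3* (0.86) and of *Tjp3* (0.85) were smaller. *Cgnl1*, which encodes the junction protein paracingulin, fell by 0.94 on the log2 scale. Of 8 desmosome genes tested, *Pkp2* (0.95) and *Dsg2* (0.70) were called higher, and *Dsp*, which encodes the desmosomal plaque protein that anchors keratin filaments, was called lower, from 25.7 ± 3.46 to 10.2 ± 1.55 CPM (SD, n = 3 each; log2 fold change -1.33, edgeR quasi-likelihood adjusted p = 5.0e-05). These are 25% and 12.5% of the desmosome genes, near the shares of all genes. Of 15 genes listed for the epithelial surface and polarity, 6 were called higher and 2 lower (40% and 13.3%, against 19.7% and 18.1% of all genes). *Marveld3*, called higher, was counted here and among the tight junction genes. *Fermt1*, which encodes the integrin activator kindlin-1, had the largest rise of these, from 0.103 ± 0.0899 to 7.49 ± 0.567 CPM (SD, n = 3 each). It was followed by *Mal2* (log2 fold change 3.07, at a mean under 1 CPM over the 6 libraries) and *Ap1m2* (2.86), the gene of an epithelial clathrin adaptor subunit. *Bspry* had 1.96. *Llgl2*, a polarity gene, fell from 17.1 ± 4.13 to 5.02 ± 0.458 CPM (SD, n = 3 each).

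**Figure D4:**
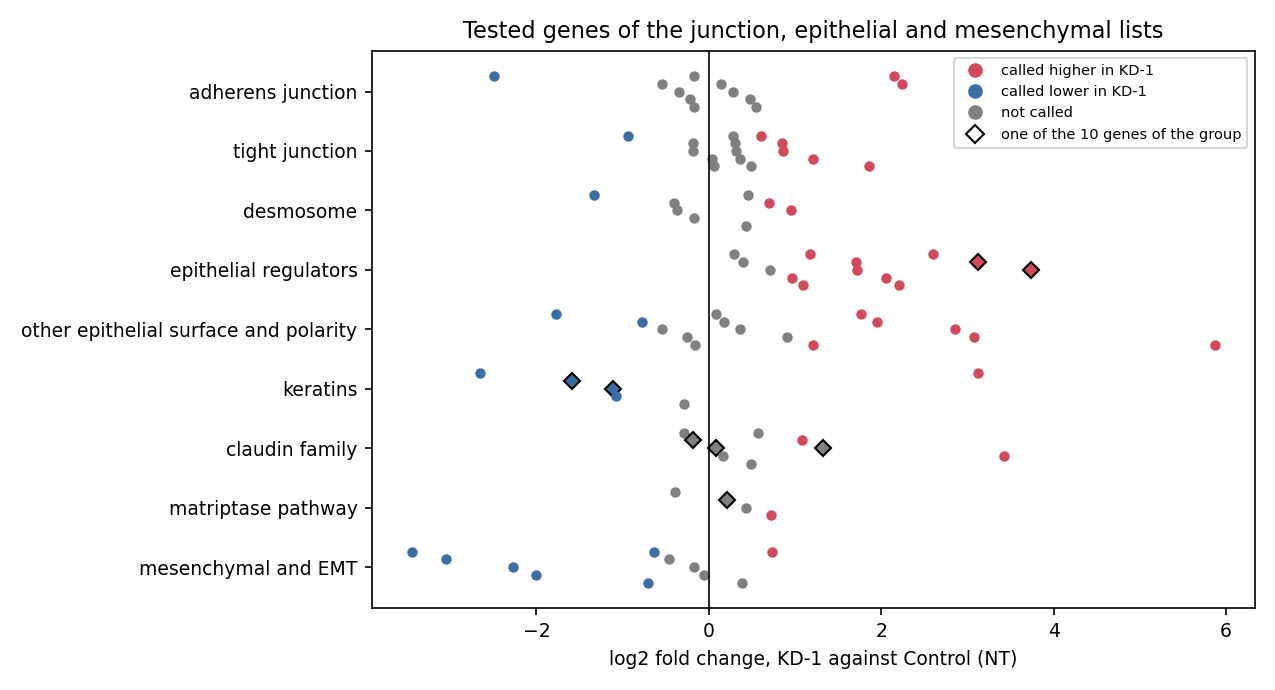
Log2 fold change, KD-1 against Control (NT), of each tested gene of 9 lists, with genes called higher in red, called lower in blue and not called in grey, and the 10 epithelial genes as outlined diamonds. The 13 tested regulators all lie to the right of 0 and 10 of them are called higher, whereas 5 of the 6 tested keratins lie to the left.

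The genes of the opposite, mesenchymal state were set beside these. *Cdh2*, which encodes N-cadherin, fell from 278 ± 12.5 to 171 ± 1.68 CPM (SD, n = 3 each; log2 fold change -0.70, edgeR quasi-likelihood adjusted p = 1.0e-05). The *Cdh1* to *Cdh2* ratio of CPM was 0.122, 0.132 and 0.130 in the Control (NT) libraries and 0.710, 0.709 and 0.737 in the KD-1 libraries, a difference of 2.49 on the log2 scale with no overlap (exact two-sided permutation test, p = 0.1, the smallest possible). *Cdh2* thus remained the cadherin with more counts in both groups. Of 11 mesenchymal and EMT genes tested, 6 were called lower and 1 higher (54.5% and 9.09%, against 18.1% and 19.7% of all genes). The transcription factor genes *Twist1*, *Prrx1* and *Snai2* had log2 fold changes of -3.05, -2.27 and -2.01, and *Snai1* (1.46 ± 0.289 and 0.145 ± 0.106 CPM) and *Zeb1* (49.0 ± 7.78 and 31.5 ± 1.71 CPM) were called lower as well, while *Zeb2* was not called. *Fn1*, which encodes fibronectin, rose (log2 fold change 0.73), and *Vim*, which encodes vimentin, had 80.9 ± 11.7 CPM in Control (NT) and 106 ± 3.87 CPM in KD-1, under the fold change threshold.

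**Figure D5:**
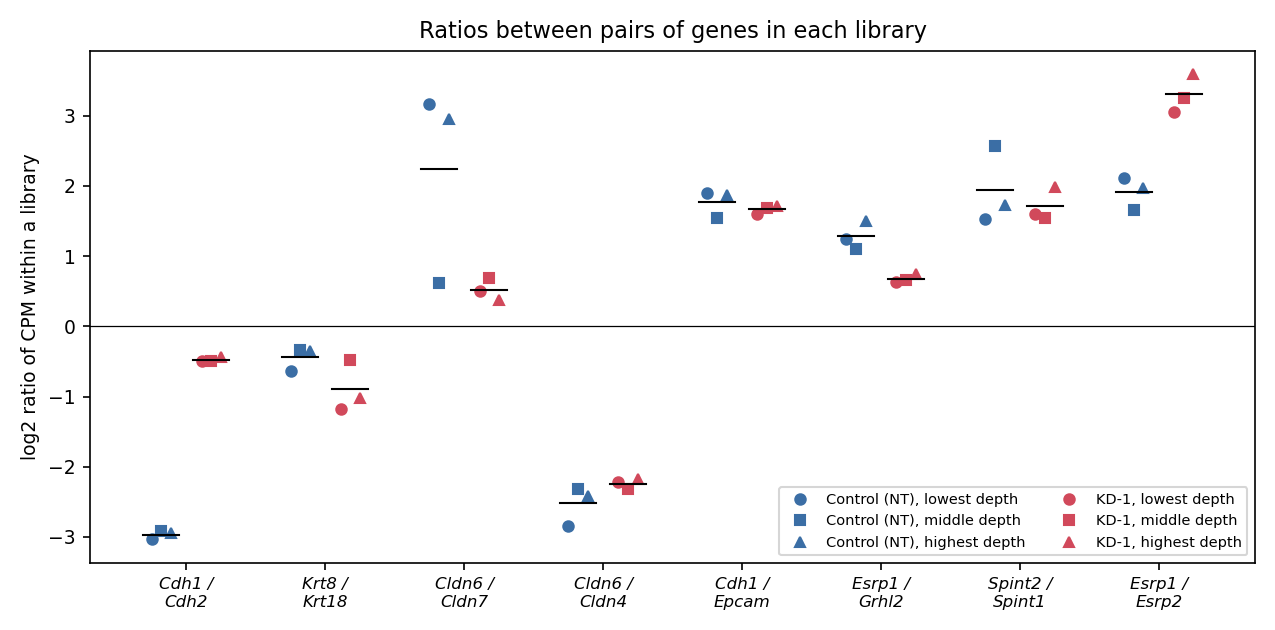
Log2 ratio of the CPM of 2 genes within each library for 8 pairs, with Control (NT) in blue, KD-1 in red, the marker shape giving the depth of the library and the black line the mean of 3 libraries. The groups do not overlap for *Cdh1* to *Cdh2* (-2.97 and -0.48 on average), *Esrp1* to *Grhl2* (1.28 and 0.68) and *Esrp1* to *Esrp2* (1.92 and 3.30), and overlap for the other pairs.

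The 8 pairs formed a family of comparisons. Since the smallest p of the exact permutation test is 0.1 here, no pair could pass 0.05 whatever its values. The adjusted p of that test was 0.267 for the pairs without overlap. It was the same for *Krt8* to *Krt18*, *Cldn6* to *Cldn7* and *Cldn6* to *Cldn4*, which overlapped, so it does not separate them. For *Cldn6* to *Cldn4* (difference 0.28, exact two-sided permutation test, p = 0.2), *Cldn6* to *Cldn7* (-1.73, p = 0.2) and *Spint2* to *Spint1* (-0.24, p = 0.7) the groups overlapped. These values depended on single libraries. With Control (NT) of middle depth left out they were 0.39, -2.54 and 0.08, the last with the opposite sign, and with that of lowest depth left out 0.12, -1.26 and -0.44.

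Markers of several cell types were set beside these differences, and the part of those cell types in them was not tested. The counts of called markers are to be read beside the 19.7% of all genes tested that were called higher and the 18.1% called lower. Of 9 markers of naive pluripotency, all tested, 7 were called higher and none lower, and their summed level was between 459 and 513 CPM in Control (NT) and between 1496 and 1534 in KD-1. Of the markers of primed pluripotency 5 of 6 were called higher (summed 60.0 to 65.4 CPM and 150 to 158 CPM). This list had a median log2 fold change of 1.52, and *Otx2*, called higher, had 3.29. Of 7 germ cell markers 6 were called higher, with summed levels of 45.8 to 50.8 CPM and 152 to 158 CPM. Of 7 surface ectoderm markers 4 were tested, 3 of them were called higher and 1 lower, and their sum went from 1.27 to 2.27 CPM in Control (NT) up to 23.6 to 25.1 CPM in KD-1. Most of that sum was *Tfap2b* (0.209 ± 0.0239 and 18.1 ± 0.698 CPM; SD, n = 3 each), a gene on chromosome 1 that neural crest and kidney also express, while *Krt14* was at 0.

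Of 8 definitive endoderm markers 5 were tested, 1 of them (*Trh*) was called higher and 3 lower, and *Sox17*, *Foxa2* and *Gsc* did not pass the filter. The sum of this list, 140 to 165 CPM in Control (NT) and 262 to 271 CPM in KD-1, was mostly *Trh*, which had 130 ± 13.1 and 265 ± 4.45 CPM. Of 8 trophoblast markers 6 were tested, 2 of them were called higher and 1 (*Cdx2*) lower (50.9 to 60.9 CPM and 66.2 to 67.8 CPM). Most of the KD-1 sum was *Tfap2c* (23.3 ± 2.10 CPM in Control (NT) and 49.7 ± 0.942 CPM in KD-1). That gene is also among the regulators counted above as called higher. The 7 visceral endoderm markers summed to between 0.386 and 0.632 CPM in Control (NT) and to 0.906 CPM or more in KD-1, with *Apoa4* at 0 counts throughout. Of 7 neural markers 5 were called higher and 1 lower (140 to 162 CPM and 281 to 286 CPM). All 8 tested genes of paraxial mesoderm and somites were called lower, their sum going from between 518 and 600 CPM to between 45.4 and 46.0 CPM. Of the 7 feeder fibroblast markers 4 were tested, 3 of them were called lower and none higher. The 7 summed to at most 9.15 CPM in Control (NT) and 1.00 CPM in KD-1.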

How the data were processed

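Bulk RNA sequencing measured 6 libraries of day 5 gastruloids, 3 of Control (NT) and 3 of KD-1. The authors prepared TruSeq libraries, quantified paired-end reads with Salmon (version 1.1, per the submitters' processing notes) on a Gencode gene model, and deposited expected counts per gene as whole numbers without normalization. The genome build, the use of strand and the rounding are not given in the sources used here. Columns name the group of a library but not its sample, so libraries are named by depth. Gene names, positions and lengths came from GENCODE vM39 (GRCm39), which matched 35222 of 35565 identifiers, and promoter sequences from RefSeq (GRCm38.p6).

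The test was edgeR's robust quasi-likelihood test in R (edgeR 4.0.16, R 4.3.3) on TMM-normalized counts of the 15110 genes that filterByExpr kept. Group was the sole factor of the model, and p-values were adjusted by Benjamini-Hochberg across these genes. Standard errors and 95% intervals come from the same fit. Ratios of 2 genes were compared by exact two-sided permutation tests over libraries. The alternatives were DESeq2 (1.42.0), limma-voom (3.58.1), other normalizations, filters and thresholds, and each library left out in turn. The tests were tried on simulated counts.

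The 10 genes, the lists and the tests were chosen with earlier results of these data known. Named were the 10 genes, the genes of the 8 ratios, *Ctnnb1*, *Ctnna1*, *Ctnnd1*, *Cdh3*, *Vim*, up to 4 called genes with the largest change per list at a mean of at least 1 CPM, and the most abundant genes of marker lists. *Cldn1*, *Cldn12*, *Krt15*, *Krt14*, *Krt5*, *Mal2*, *Krt8-ps*, *Grhl3*, *Snai1*, *Zeb1*, *Zeb2*, *Jup*, *Marveld3*, *Elp5*, *Ncald* and markers at or near 0 were named after their values were seen. The values of 1 gene that this rule names are not reported here.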

Additional observations from a re-analysis of the deposited data

How the results depend on the processing

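In each of the 16 other settings the 4 genes called higher (*Cdh1*, *Epcam*, *Esrp1* and *Grhl2*) and the 2 called lower (*Krt8* and *Krt18*) stayed called in their direction, and none of the 10 genes changed sign. *Cldn7* was called in 3 settings (DESeq2, limma-voom, and with Control (NT) of middle depth left out), so that 5 of the 10 genes were called higher in those 3. More of all genes were called higher there too: 3284, 3132 and 3109 in that order, against 2976 in the main setting. The log2 fold change of *Cldn7* was between 0.92 and 2.52 over the 15 settings that gave it a value (at least 10 counts in every library removed it). With no fold change threshold, 4676 genes of all were called higher and 4921 lower, and of the junction and epithelial lists 36 genes were called higher in place of 26 and 12 lower in place of 7. With an absolute log2 fold change over 1, 1948 genes were called higher and 1326 lower. With no length correction, the change of the share of *Cldn12* among claudins was 6.72 percentage points and that of *Cldn4* -9.26, and that of *Krt8* among keratins -7.65, against 5.01, -14.7 and -6.00 per kilobase. No paired analysis was possible because the columns do not carry the replicate numbers of the sample labels. At this depth *Krt8* rests on 33 to 143 counts in a library and *Cldn7* on 7 to 251.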
